A study of Rattus norvegicus with 12 samples.

Results

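The libraries described here compare RNA precipitated with an antibody against Cpeb4 with the total RNA of the same kind of cells, phenylephrine (PE)-treated cardiomyocytes. They were chosen by their labels, as the 3 PE precipitate (IP) and 3 PE input columns of the deposited count table, and are 6 of the 12 libraries of the series. The cells were ventricular heart muscle cells of Wistar rats, labelled as 2 days old (the protocol text gives 1 to 2 days), purified on a density gradient and given PE for 24 h. The other 6 libraries are input and IP of mock-treated cells of the same strain, age and preparation. Cpeb4 was pulled down from sonicated whole lysate with an antibody caught on anti-rabbit beads, which were washed in high salt before RNA was extracted, and input is total RNA without antibody. No precipitate made with a control antibody was analysed here, so RNA held by Cpeb4 and RNA held by the beads or the antibody cannot be told apart. The labels do not say whether replicates came from separate cultures, and p-values therefore measure only how these samples vary, a spread that may be technical.

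Cpeb4 belongs to the cytoplasmic polyadenylation element binding proteins, which recognise uridine-rich elements in the 3′ untranslated region of messenger RNAs. Depending on their partners they lengthen or shorten the poly(A) tail of a bound transcript and so raise or lower its translation. PE activates alpha-1 adrenergic receptors and is a standard trigger of hypertrophic growth in cultured neonatal cardiomyocytes, a growth that relies on altered protein synthesis.

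The table names genes by Ensembl identifier alone. Of its 32883 identifiers, 0 could be matched to a symbol in the reference table used here, which covers 47357 rat genes of the GRCr8 assembly. Mitochondrially encoded and nuclear genes could therefore not be separated, the labelled cell type could not be checked against its markers, and no value can be given for Cpeb4 itself. Genes are instead described by how abundant they were, a choice made after the table had been examined, and 2 identifiers per direction are given. The libraries were made with a 3′ end kit, so counts stand for transcript ends and not for transcript length. Totals of the PE libraries ran from 2224005 to 30216559 counts, a 13.6-fold span. In bulk RNA, fewer cells with a transcript and less of it per cell cannot be told apart, and counts are shares of a library, not amounts of RNA recovered.

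PE input replicate 1 stood apart from the other libraries. Its Spearman correlation with the other inputs was 0.747 and 0.766 over 10491 genes, while PE input replicates 2 and 3 reached 0.893 with each other and the 3 precipitates 0.805 to 0.836 among themselves. Genes are not independent replicates, and libraries of different depth share their zeros. Of 3289 genes with a count in the 5 other PE libraries and a mean of 5 to 20 counts per 1000000 (CPM, scaled as described with the test) there, 19.6% had 0 counts in PE input replicate 1. The same share was 0.469% to 4.09% in the other libraries. PE input replicate 1 was not the shallowest, with 5167090 counts against 5139592 in PE input replicate 2. The median SD of log2 levels across the inputs, over 5932 genes with at least 10 CPM, was 0.574 with that library and 0.286 between replicates 2 and 3 alone. Across the precipitates it was 0.539 with all 3 and 0.389 without IP replicate 1, so the SD of 2 libraries was lower than that of 3 in both pools.

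The few transcripts that led the input took a smaller share of counts in the Cpeb4 precipitates of PE cells. Genes were ranked by their mean share of counts in the 3 mock inputs, which are not part of the comparison. The 10 highest genes of that ranking held 24.3%, 43.1% and 49.8% of counts in PE input replicates 1, 2 and 3, and 2.83%, 13.7% and 8.00% in PE IP replicates 1, 2 and 3. The highest IP library lay below the lowest input library. The means were 39.1% ± 13.2 (SD, n = 3) in input and 8.17% ± 5.43 (n = 3) in IP, a difference of -30.9 percentage points, or -38.3 without PE input replicate 1. The two-sided exact permutation test gave p = 0.1, the smallest value that 3 against 3 can reach (0.133 after Benjamini-Hochberg adjustment over 4 abundance classes). All 10 genes had a lower mean share in IP than in input, and 5 of them had no overlap between the libraries of the 2 pools. Over all 10491 genes tested, 9.21% had every IP library below every input library, on levels scaled as described with the test. The 10 highest genes of each library's own ranking held 30.0%, 43.2% and 49.9% in PE input replicates 1, 2 and 3. In PE IP replicates 1, 2 and 3 they held 13.8%, 16.9% and 14.3%.

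The share that the leading genes lost was found in the broad middle and tail of the ranking. The classes together hold all counts of a library, so a fall in the first had to appear as a rise elsewhere. The rises below show where it went and are not separate results. The 900 genes that followed rank 100 took up 20.5% ± 4.61 (SD, n = 3) of the input libraries and 31.1% ± 2.11 (n = 3) of the precipitates. All genes ranked beyond 1000 made up 13.8% ± 3.60 (n = 3) in input against 33.4% ± 1.47 (n = 3) in IP. In both classes every IP library lay above every input library (exact permutation p = 0.1 each, adjusted 0.133). The class of 90 genes at ranks 11 to 100 stood at 26.7% ± 5.06 (n = 3) in input and at 27.3% ± 2.04 (n = 3) in IP, with overlapping libraries (exact permutation p = 0.9, adjusted 0.9).

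**Figure D1:**
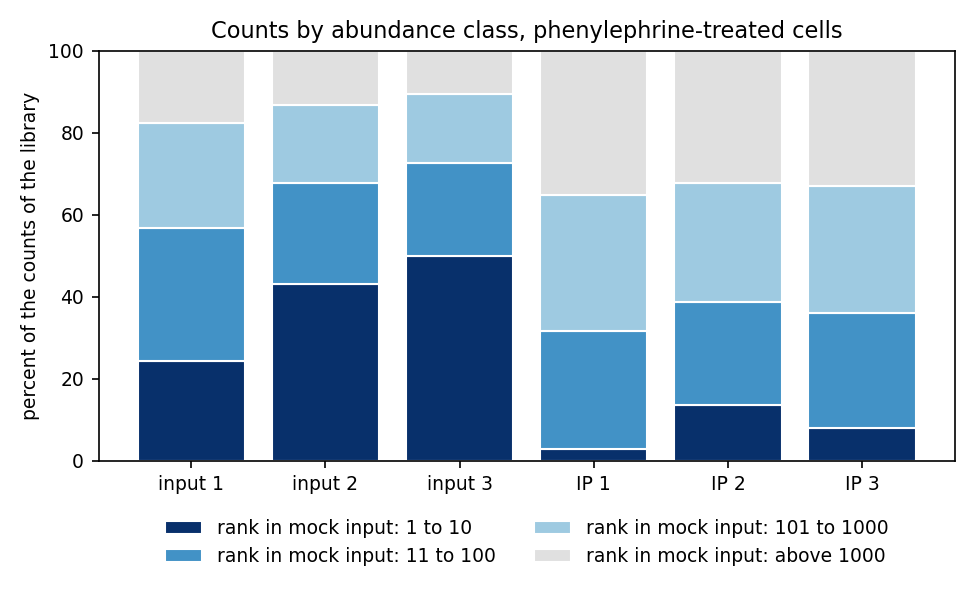
Percent of the counts of each PE library (vertical axis) in 4 classes of genes ranked by their mean share in the mock inputs; each bar is 1 library. The darkest class, ranks 1 to 10, takes 24.3% to 49.8% of the inputs and 2.83% to 13.7% of the precipitates.

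The precipitates were accordingly more even than the inputs. A share of 50% of counts was reached with 55, 20 and 11 genes in PE input replicates 1, 2 and 3, against 282, 200 and 244 in the IP replicates. The 2 ranges did not overlap (exact permutation p = 0.1, adjusted 0.4 over 4 measures of evenness and detection). A gain in the number of genes was not detected, though 3 against 3 cannot go below p = 0.1 in the exact permutation test. At an equal depth of 2224005 counts, the expected number of genes with a count was 8526, 10766 and 10577 in the inputs and 10247, 10543 and 11488 in the precipitates (exact permutation p = 0.6, adjusted 0.8). The difference in means was 803 genes, and 88.2 genes without PE input replicate 1. At an equal depth of 1000000 counts it was 1130 genes (exact permutation p = 0.2, adjusted 0.4). Many transcripts were seen in both pools: 7261 genes had a count in all 6 libraries. Another 75 genes had counts in all 3 precipitates and 0 in all inputs, and 32 genes the opposite. Of these, 21 and 6 had at least 10 counts in each library of the pool that held them, and 0 of those were called by the test described next.

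Gene by gene, 48 genes were higher and 173 lower in the Cpeb4 precipitate than in input of PE cells (edgeR quasi-likelihood test, Benjamini-Hochberg adjusted p under 0.05). These are 0.458% and 1.65% of the 10491 genes tested. Fold changes are relative to scaling by TMM (trimmed mean of M-values), which places most genes near 0. Levels are CPM of the TMM-scaled library. All called genes had at least 10 CPM on average over both pools, which a gene can reach through 1 pool. The higher genes differed by a median of 2.21 on the log2 scale (range 1.25 to 7.12), and 30 of them by at least 4-fold. The lower genes differed by a median of 1.86 in size on that scale (range 1.01 to 4.44), and 65 of them by at least 4-fold. In all 48 and all 173 genes the precipitates and the inputs were fully apart. The same libraries selected these genes, so their separation is a description and lends the calls no further weight. Across all genes tested, 12.9% had every IP library above every input library and 9.21% had every IP library below.

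The balance between higher and lower calls rests on the scaling. With library totals in place of TMM, 641 genes were called higher and 24 lower, 96.4% higher against 21.7% with TMM, and the median over all genes tested moved from a log2 fold change of 0.18 to 1.27. Under that scaling all 48 higher genes kept their sign and 168 of the 173 lower genes did. The number of calls also rests on single libraries, mock libraries among them; the fit shares 1 estimate of the spread among all groups. The higher calls went from 48 to 4 and 7 without PE input replicate 2 or 3, to 9 and 3 without PE IP replicate 1 or 2, to 28, 28 and 24 without mock input replicate 3 or mock IP replicate 1 or 3, and to 83 without mock IP replicate 2. The lower calls went from 173 to 96 and 60 without PE input replicate 2 or 3, and to 77, 62 and 77 without PE IP replicate 1, 2 or 3. In each of these fits all 221 genes kept their sign.

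Among genes of at least 10 CPM, the fold change ran downwards with transcript level. Tested genes were binned by their mean level in the 3 mock inputs, which again lie outside the comparison. They are inputs like 1 side of it, so genes held mainly in input sort into higher bins. Bins by level in mock IP were not made. Among 134 genes at 1000 CPM or more, the median log2 fold change of PE IP against input was -1.18, 93.3% of genes were below 0, and 57 were called lower and 0 higher. Among 951 genes at 100 to 1000 CPM the median was -0.49, with 96 called lower and 4 higher. Among 4333 genes at 10 to 100 CPM it was 0.08, with 20 called lower and 36 higher. With library totals these 3 medians kept their order and shifted up to -0.12, 0.57 and 1.16, so the sign of the 100 to 1000 CPM bin turned. The order was also the same in each replicate number. The median log2 ratio of IP over the input of the same number was -1.19, -1.21 and -1.29 in numbers 1, 2 and 3 at 1000 CPM or more, -0.44, -0.54 and -0.50 at 100 to 1000 CPM, and 0.23, -0.04 and 0.13 at 10 to 100 CPM. In 4042 genes at 1 to 10 CPM the median fold change was 0.46, with 8 called higher and 0 lower, and in 1031 genes under 1 CPM it was 0.98, with 0 called. Nothing is read from the sign of these 2 medians, since genes so low in mock input can pass the low-count filter through another group in which they are higher, and both IP groups are among those. Without the filter the median over all genes was 0, against 0.18 with it.

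The precision of the fold changes differed over the same bins. The median standard error (SE) was 0.31 on the log2 scale at 1000 CPM or more, 0.67 at 10 to 100 CPM and 2.47 under 1 CPM. At the errors of the lowest bin, changes of several-fold in single genes were not detectable. Among the 10 genes highest in mock input, log2 fold changes lay between -3.90 and -2.20 (median -3.53, and -2.30 with library totals). Of these 10 genes, 3 were called lower, against 1.65% of all genes tested and 42.5% of the 134 genes at 1000 CPM or more.

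**Figure D2:**
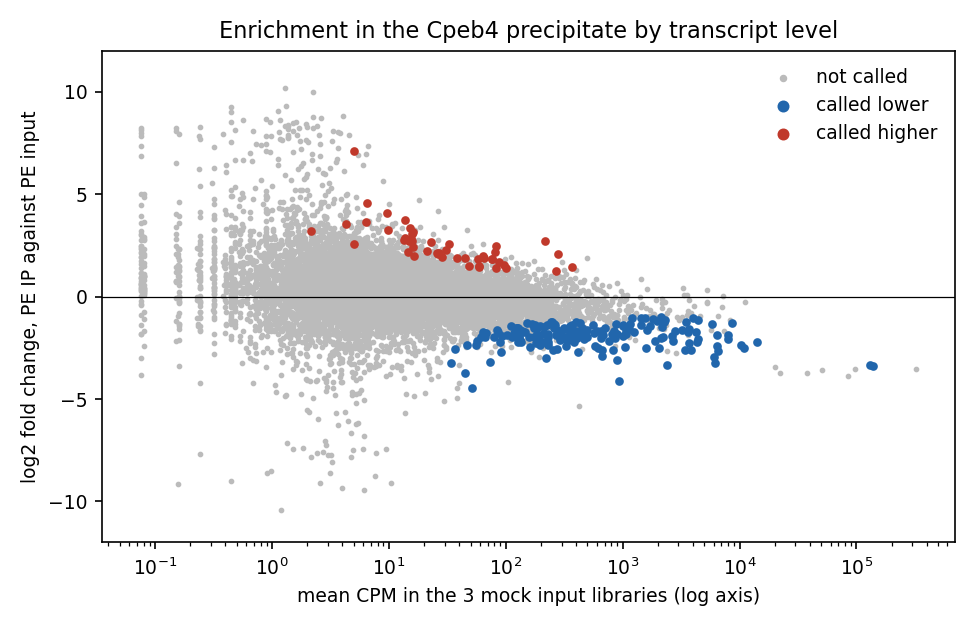
Log2 fold change of PE IP against PE input (vertical axis) against the mean CPM in the mock inputs (horizontal, log axis) for 10182 genes; 309 genes at 0 in the mock inputs are not drawn. Blue points are genes called lower and red points genes called higher, and of the 173 blue points 96 sit at 100 to 1000 CPM and 57 above; the zero line is that of TMM scaling, and the 100 to 1000 CPM genes lie above 0 in the median with library totals.

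The called genes moved alike in the 3 replicate numbers. Taking the IP of each number over the input of the same number, with 0.5 CPM added, the median log2 ratio of the 173 lower genes was -1.72, -1.78 and -2.02 in numbers 1, 2 and 3. For the 48 higher genes it was 2.30, 2.62 and 1.78. All 221 genes kept 1 sign in the 3 numbers; the same libraries selected them, so this is a description. By comparison, 24.3% of all genes tested were up and 16.7% down in all 3 numbers. The largest ratio of a higher gene came from number 2 in 27 genes, from number 1 in 17 and from number 3 in 4. For lower genes the largest depletion came from number 3 in 75 genes and from numbers 1 and 2 in 49 each.

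**Figure D3:**
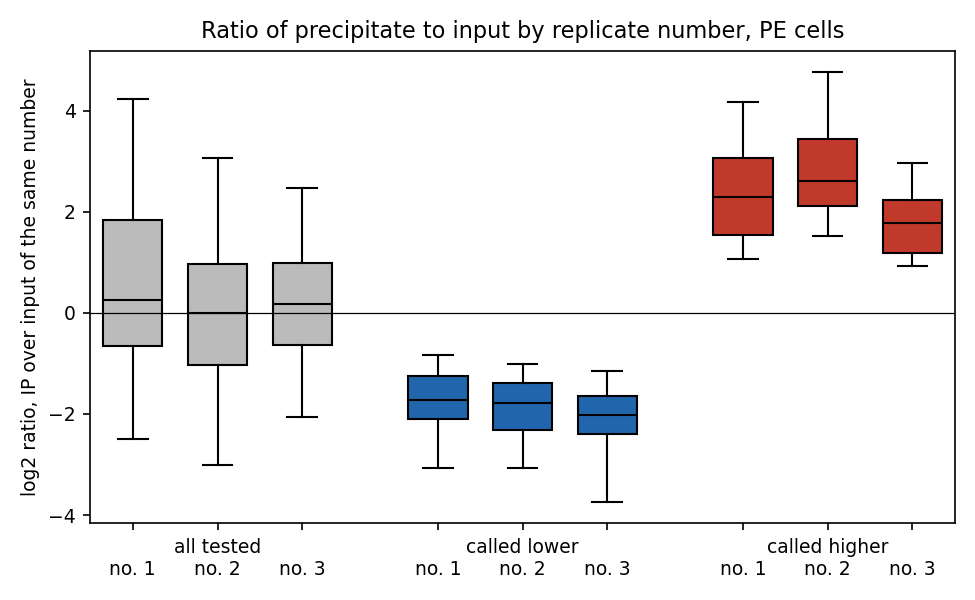
Log2 ratio of IP over the input of the same replicate number (vertical axis) for all tested genes (grey), genes called lower (blue) and genes called higher (red); boxes span the quartiles with the median as a line, and whiskers reach the 5th and 95th percentiles. The called genes sit on 1 side of 0 in numbers 1, 2 and 3, with medians from -2.02 to -1.72 and from 1.78 to 2.62.

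In share of the counts, the higher genes stayed a small part of the precipitate and the lower genes a large one. The 48 higher genes held 0.220%, 0.161% and 0.127% of counts in PE input replicates 1, 2 and 3, and 1.43%, 1.61% and 1.08% in the IP replicates. The 173 lower genes held 36.9%, 28.8% and 27.9% of the inputs and still 11.03%, 15.4% and 13.001% of the precipitates. The same libraries chose these genes, and the shares are given as a description. The median level of the lower genes was 446 CPM in input and 115 CPM in IP, and that of the higher genes 22.4 CPM in input and 105 CPM in IP.

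The genes named from here on were picked for a large fold change and for no overlap between the pools. Their separation is therefore given only as a description. Of the 48 genes called higher, all with at least 10 CPM on average over both pools, the largest rise was that of ENSRNOG00000006738. Its level was 0, 0 and 0.299 CPM in PE input replicates 1, 2 and 3, and 13.5, 39.0 and 10.3 CPM in the IP replicates. In raw counts these were 0, 0 and 5 in the inputs and 645, 132 and 83 in the precipitates. The mean was 0.0995 CPM in input and 20.95 CPM in IP, so the gene reached 10 CPM over both pools through the IP alone. The fitted log2 fold change was 7.12 (SE 1.66, edgeR adjusted p = 0.0340), a size that rests on 5 input counts. The call was lost in 8 of the 12 fits that left out 1 library each, those without any single PE library and those without mock IP replicate 1 or 3 (edgeR adjusted p up to 0.194, without PE IP replicate 2).

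ENSRNOG00000023356 was low but present in every input. It held 1.82, 1.89 and 1.07 CPM in PE input replicates 1, 2 and 3, and 32.0, 64.4 and 15.9 CPM in the IP replicates. The inputs were close together, and this gene too reached a mean of 10 CPM over both pools through the IP alone. The log2 fold change was 4.57 (SE 0.98, edgeR adjusted p = 0.0216). The call did not pass without PE input replicate 2 or 3 (edgeR adjusted p = 0.0865 and 0.130) or PE IP replicate 1 or 2 (0.0585 and 0.134).

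Of the 173 genes called lower in the fit of 12 libraries, ENSRNOG00000061441 showed the largest fall. Its level was 11.9, 69.3 and 59.7 CPM in PE input replicates 1, 2 and 3, and 2.49, 0.886 and 2.86 CPM in the IP replicates. Input replicate 1 was well under the other inputs and still above all precipitates. The log2 fold change was -4.44 (SE 0.78, edgeR adjusted p = 0.00657), and it passed in all 12 fits that left out a single library (edgeR adjusted p up to 0.0492). With input and IP of number 2 or 3 left out together it did not pass (edgeR adjusted p = 0.161 and 0.102).

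ENSRNOG00000031053 was more abundant. It held 104, 526 and 798 CPM in PE input replicates 1, 2 and 3, and 11.97, 43.4 and 27.7 CPM in the IP replicates. In both pools the library of number 1 was the lowest, and the 2 pools did not overlap, as the selection required. The log2 fold change was -4.12 (SE 0.89, edgeR adjusted p = 0.0356), and the call was lost in 8 of 12 fits without 1 library: PE input replicate 2 or 3, any PE IP replicate, mock input replicate 3, and mock IP replicate 1 or 3 (edgeR adjusted p up to 0.143, without PE IP replicate 1). With library totals the log2 fold changes of the 4 genes were 8.31, 5.60, -3.23 and -2.86 in the order given here, and all 4 still passed.

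**Figure D4:**
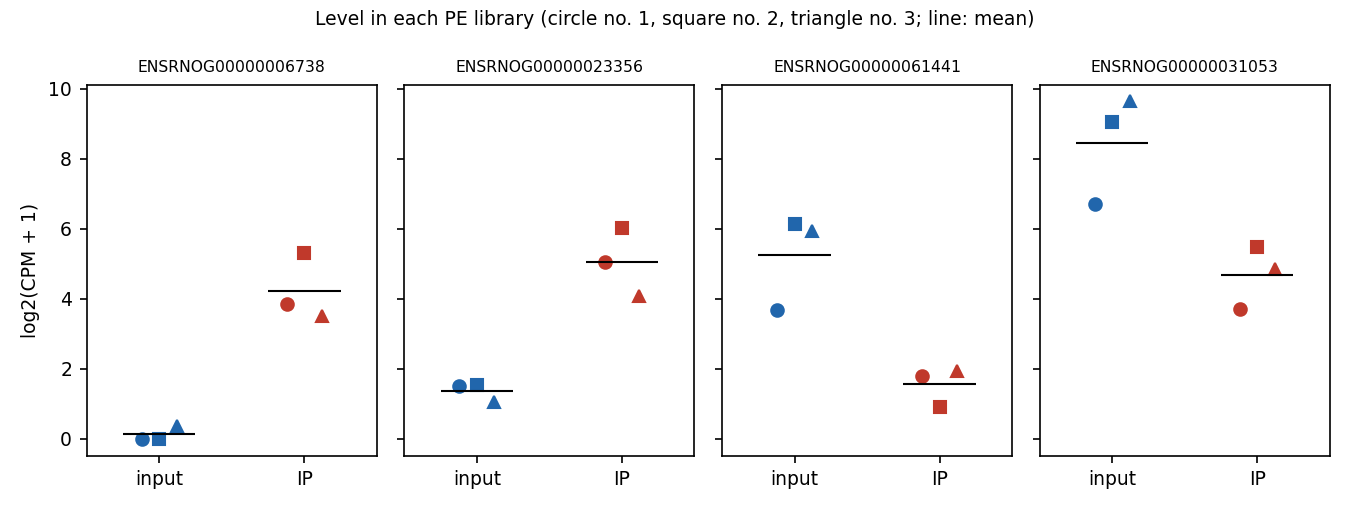
Level of the 4 named genes in each PE library as log2(CPM + 1) on the vertical axis, input in blue and IP in red; symbols mark the replicate number and lines the mean of 3 libraries. The 3 precipitates and the 3 inputs do not overlap in any of these genes, which the rule that picked them required.

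Without PE input and PE IP of number 1, which leaves 2 libraries in each PE group and 3 in each mock group, 8 genes were called higher and 79 lower, of which 6 and 74 were among the 48 and 173. Mock IP replicate 2 had a count in 8455 genes, the fewest of the 12 libraries, at 17838962 counts. Leaving out the 2 libraries of mock number 2 as well raised the calls to 357 higher and 621 lower, and all 48 and all 173 genes were among them. The common biological coefficient of variation was 0.627 in that fit and 1.00 with all 12 libraries. This second choice was made after the values were known.

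The genes called on PE cells had, with 1 exception, the same sign in cells without PE. For this, the calls were made on the 6 PE libraries alone, which gave 30 genes higher and 107 lower (edgeR; 0.286% and 1.02% of genes tested), and were then read in the 6 mock libraries, which share no library and no estimate of the spread with them. In mock cells all 30 higher genes had a positive log2 fold change, with a median of 1.55 against 2.71 in PE cells. Of the 107 lower genes, 106 had a negative one, with a median of -1.52 against -2.17. Over all genes tested, 53.6% were positive in mock cells and the median was 0.09. The PE medians come from the libraries that selected the genes, so the smaller mock medians are no measured difference between treatments.

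In mock cells, every IP library lay above every input library in 19 of the 30 higher genes, against 9.96% of all genes. Every IP library lay below every input library in 93 of the 107 lower genes, against 7.9% of all genes. These levels were scaled with all 12 libraries, and the shares of all genes are not matched for transcript level. Of the 173 lower genes of the 12-library fit, 96 lay at 100 to 1000 CPM in mock input and 57 higher. By the test on the 6 mock libraries alone, 13 of the 107 lower genes and 0 of the 30 higher genes passed; these 13 were all the genes that passed there (edgeR, 0.124% of those tested). The 1 lower gene with the opposite sign, which was not among the 173 of the fit of 12 libraries, had 64, 88 and 82 counts in PE input replicates 1, 2 and 3 and 0 in all PE precipitates. In mock replicates 1, 2 and 3 it had 15, 0 and 0 counts in input and 20, 0 and 273 in IP (edgeR adjusted p = 0.973 in the mock fit).

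**Figure D5:**
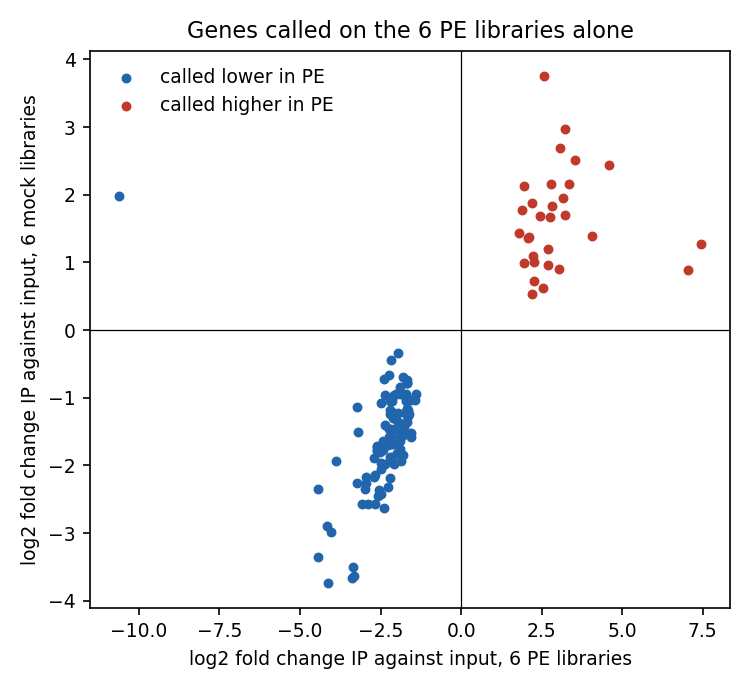
Log2 fold change of IP against input in the 6 mock libraries (vertical axis) against that in the 6 PE libraries (horizontal axis) for the 137 genes called on the PE libraries alone, 30 higher in red and 107 lower in blue. All red points and 106 of the blue points have the same sign on both axes.

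No gene was shown to be enriched or depleted to another degree after PE. The test of the difference between the IP contrasts of PE and mock cells called 0 genes (edgeR, 0% of 10491), and its lowest adjusted p was 1.00. Before adjustment, 271 genes had p under 0.05. By the DESeq2 Wald test 0 genes passed as higher and 2 as lower. The 4 named genes had the same sign in mock cells, with log2 fold changes of 0.89 (SE 1.25), 2.46 (SE 0.88), -2.34 (SE 0.71) and -3.73 (SE 0.87) in the order given above. None of them passed there (edgeR adjusted p = 0.931, 0.278, 0.186 and 0.0848), and the first fold change was smaller than its SE. The largest difference was that of ENSRNOG00000006738, 6.23 (SE 1.96, edgeR unadjusted p = 0.00569, adjusted p = 1.00). Its mock inputs held 3.14, 11.9 and 0 CPM and its mock precipitates 10.0, 6.62 and 12.8 CPM, so the pools overlapped there. A missed threshold does not show that enrichment was the same in both treatments.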

How the data were processed

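The authors deposited 1 table of raw counts per Ensembl rat gene, with 12 columns; the build was Rnor_6.0 and the tools included STAR 2.7, cutadapt 2.5, DESeq2 and featureCounts 1.6.4, per the submitters' processing notes, options not given in the sources used here. Its 32883 blank lines were skipped, and columns were matched to samples by pool, treatment and number. Counts of a group differed beyond sampling noise (chi-square per degree of freedom 40.3 to 368). Tests used edgeR 4.0.16 (R 4.3.3): filterByExpr, TMM, 4 group means over 12 libraries, robust quasi-likelihood F-test, Benjamini-Hochberg over 10491 genes; SE is the fold change over the root of F. DESeq2 1.42.0 was an alternative; fits with fewer libraries kept these genes. Shares were compared by exact permutation in scipy 1.17.1. The edgeR fit was tested on simulated counts with as many genes raised as lowered, which did not test the choice of scaling. The exact test and the adjustment were checked on a few made-up values. Named genes passed the threshold, had at least 10 CPM and no overlap, and were taken by fold change; 15 per direction were planned with symbols. The tests on nuclear and mitochondrial genes, the mitochondrial share and 36 gene lists could not be run without symbols. The comparison and lists were chosen with earlier results of these data known, and abundance classes, bins, per-number ratios and the reading in mock libraries were added after the files were examined.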

Additional observations from a re-analysis of the deposited data

How the results depend on the processing

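For PE IP against input, 48 genes were reported as higher and 173 as lower, and pairs of counts below follow that order. Library totals gave 641 and 24, no low-count filter 158 and 265, the DESeq2 Wald test 200 and 383, and the 6 PE libraries alone 30 and 107. Without both libraries of PE number 1, 2 or 3 the counts were 8 and 79, 0 and 27, and 0 and 10. When 1 library at a time was dropped, the ranges were 3 to 83 and 60 to 249. Leaving out the 4 libraries of mock number 2 and PE number 1, chosen after seeing the data, gave 357 and 621. DESeq2 size factors gave 43 and 172, and removal of the 10 most abundant genes before scaling, also chosen afterwards, 41 and 171. For the difference between PE and mock, 1 gene was called lower with no filter, 2 by DESeq2, and 0 in the other fits. Why the counts moved, the cause, was not tested.

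A replicate block, with each IP tied to the input carrying its number, called 128 and 293 on 12 libraries and 107 and 242 on the 6 PE libraries. In the column headers, input and IP of the same number also share a letter, D, E or F in PE cells, which may pair them. The deviations of same-numbered PE libraries from their group means correlated at 0.19, 0.01 and 0.19. PE input replicates 1 and 3 correlated best with the IP of their own number. PE input replicate 2 correlated best with IP replicate 3 (0.18). With the block, the common biological coefficient of variation was 0.869 on 12 libraries, against 1.00 without it. On the 6 PE libraries it was 0.810 with the block and 0.898 without. The main fit assumed no pairing, and a pairing remains possible, so its counts may leave out a real one. With the block, ENSRNOG00000006738 did not pass on 12 libraries (edgeR adjusted p = 0.0647) and passed on the 6 PE libraries (0.0290). The difference in share of the 10 leading genes, -30.9 percentage points, was -38.3 to -25.5 without single libraries and -25.1 when ranked by mock IP. Scaling by nuclear genes alone and the alternatives for the mitochondrial share were not run.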
